A study of Mus musculus with 4 samples.

Results

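The genes described here encode the subunits of the mitochondrial respiratory chain and of ATP synthase. They were chosen by name alone. All symbols of the array's annotation that begin with Nduf followed by A, B, C, S or V and a number, the 4 Sdh genes, and the Uqcr, Cox4 to Cox8 and Atp5 genes were taken, which gave 81 of 18194 genes. By complex, 35 genes belonged to complex I, 4 to complex II, 8 to complex III, 17 to complex IV and 17 to complex V. The study compared wild-type mice with transgenic mice that carry a constitutively activated aryl hydrocarbon receptor (CA-AhR), a transcription factor that normally needs a ligand such as dioxin. Each genotype was measured in 2 tissues, liver and duodenum, which makes 4 groups. All mice were female, 5 to 6 weeks old and fed standard chow, and tissue of 3 mice was pooled for each group and hybridized to 1 Affymetrix Mouse Genome 430 2.0 array. The labels used here name neither the promoter of the transgene nor the strain of the mice. Because a group is 1 array, the spread between replicates is unknown, and the differences below are given without error or test.

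The respiratory chain lies in the inner mitochondrial membrane. Complex I (NADH dehydrogenase) and complex II (succinate dehydrogenase, also an enzyme of the citric acid cycle) pass electrons to ubiquinone, complex III (the cytochrome bc1 complex) passes them to cytochrome c, and complex IV (cytochrome c oxidase) passes them to oxygen. Complexes I, III and IV pump protons as they do so, and complex V (ATP synthase) makes ATP from the proton gradient. A few subunits of complexes I, III, IV and V are encoded in mitochondrial DNA, and the genes described here are nuclear. Several complex IV subunits exist as isoforms from separate genes, with forms typical of heart and skeletal muscle beside forms found in liver and most other tissues.

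The signals are linear MAS5 intensities, and each array had a mean of 500.0 once the lowest and highest 2% of probe sets were left out. Every ratio is relative to that scale. A floor of 129.3 took the place of any lower signal, so a fold with 1 array under it is written with "at least". A gene below the floor on both arrays of a comparison was left out of it. Signals of different probe sets are not comparable with each other, so levels are compared between arrays and never between genes. On each array 77 or 78 of the 81 genes lay above the floor and 70 or 71 had a signal of at least 1000. The genotype labels were checked on Cyp1a1, a target of the receptor, which read 1403.5 and 47625.8 on the wild-type and transgenic liver arrays and 2109.5 and 20795.8 on those of duodenum. Tissue labels were checked on markers: the hepatocyte gene Alb read 82739.1 in wild-type liver and 216.3 in wild-type duodenum, and the enterocyte gene Vil1 read 26.1 and 19520.1. The ratio of 3′ to 5′ signal of Gapdh, a measure of RNA integrity, was 0.608 and 0.719 on the wild-type and transgenic liver arrays and 1.03 and 3.07 on those of duodenum. Spiked hybridization controls (18 probe sets) had a median log2 ratio of -0.68 between the liver arrays and 0.05 between the duodenum arrays.

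Promoter sequence was taken from RefSeq on the GRCm38.p6 build for 66 of the 81 genes, as 250 bases before and 50 after the start site. Both strands were searched for motifs of factors known for respiratory chain genes (NRF1, GABP and YY1) and for the core of the AhR response element. GCGCNNGCGC, the NRF1 motif, lay in 15 of the 66 promoters (22.7%) and in 8.80% of 17491 promoters of protein-coding genes. CCGGAAG, the GABP motif, lay in 16 (24.2%, against 11.9%), and AANATGGC, the YY1 motif, in 13 (19.7%, against 6.69%). Of the 13 promoters with the YY1 motif, 10 were among the 31 of complex I and 0 among the 5 of complex III and the 12 of complex IV. TNGCGTG, the AhR core, lay in 8 (12.1%, against 6.07%): Ndufa3, Ndufa4, Ndufa7, Ndufc2, Ndufv1, Sdha, Sdhb and Atp5md. Such a match is a description of the letters and not a site of binding. The median GC content of the 300 bases was 58.5% in the 66 promoters and 56.3% in all.

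The 250 bases before the start site are shown for 5 genes to which the results return, 5′ to 3′ on the gene's strand, with motif matches in capitals. Cox7a1 (chr7:30183921-30184170, plus strand) had the highest ratio in liver and is shown beside its isoform gene Cox7a2 (chr9:79759854-79760103, minus strand), and neither held a match. Sdha (chr13:74350241-74350490, minus strand) and Sdhd (chr9:50603850-50604099, minus strand) had opposite ratios in duodenum. Sdha held 3 matches to the NRF1 motif and, between the first and the next of them, 1 to the AhR core, and Sdhd held 1 to the NRF1 motif followed by 1 to the GABP motif. Ndufa3 (chr7:3617123-3617372, plus strand), 1 of the 4 genes with the highest measured ratios in liver, held 1 match to the AhR core.
Cox7a1: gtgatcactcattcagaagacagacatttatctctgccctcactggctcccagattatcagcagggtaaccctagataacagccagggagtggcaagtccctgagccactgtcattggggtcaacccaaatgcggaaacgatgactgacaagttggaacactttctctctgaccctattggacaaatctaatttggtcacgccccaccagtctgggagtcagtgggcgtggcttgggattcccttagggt
Cox7a2: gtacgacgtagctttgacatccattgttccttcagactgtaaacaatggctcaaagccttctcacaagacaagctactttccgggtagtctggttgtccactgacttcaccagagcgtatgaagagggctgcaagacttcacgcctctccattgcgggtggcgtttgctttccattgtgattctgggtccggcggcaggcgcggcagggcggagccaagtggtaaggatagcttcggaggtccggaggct
Sdha: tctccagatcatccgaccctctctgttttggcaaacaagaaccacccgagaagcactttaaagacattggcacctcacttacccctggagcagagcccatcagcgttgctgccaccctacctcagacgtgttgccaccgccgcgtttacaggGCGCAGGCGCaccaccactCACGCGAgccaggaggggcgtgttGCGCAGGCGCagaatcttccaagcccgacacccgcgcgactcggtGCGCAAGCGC
Sdhd: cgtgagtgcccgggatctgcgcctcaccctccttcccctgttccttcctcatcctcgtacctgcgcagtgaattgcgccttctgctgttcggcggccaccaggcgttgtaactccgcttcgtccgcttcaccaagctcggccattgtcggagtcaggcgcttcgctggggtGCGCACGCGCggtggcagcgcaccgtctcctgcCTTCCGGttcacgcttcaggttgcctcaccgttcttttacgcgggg
Ndufa3: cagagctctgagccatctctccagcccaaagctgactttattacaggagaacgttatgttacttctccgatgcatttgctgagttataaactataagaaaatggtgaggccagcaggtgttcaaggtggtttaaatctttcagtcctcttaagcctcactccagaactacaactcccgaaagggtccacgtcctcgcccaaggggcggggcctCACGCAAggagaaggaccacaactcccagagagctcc

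The first comparison asked how transcripts of the respiratory chain differed in liver with an active AhR. They differed little. Of 79 genes measured, 1 was 1.5-fold or more higher in transgenic liver, 2 were 1.5-fold or more lower and 76 were neither. Of all 13948 genes measured, 13.5% were higher and 12.1% lower by the same fold, and of the 3840 genes with a mean signal of at least 1000 the shares were 10.0% and 6.43%. At 2-fold or more 1 respiratory chain gene was higher and 0 were lower, against 4.72% and 3.60% of all genes and 3.49% and 1.46% of the bright ones. The median log2 ratio was -0.09 over the respiratory chain genes and 0.01 over all genes. The interquartile range of their log2 ratios was 0.318, against 0.655 over all genes and 0.494 over bright genes. Among genes with a mean signal of at least 20000 the quartiles were closer, at -0.23 and 0.01 over 16 respiratory chain genes and -0.35 and -0.02 over all 86. A spread narrower than over all genes was seen in each of the 12 processing settings that were run, the main one included. Bright genes were set beside the respiratory chain genes in the main setting only. The interquartile range was 0.244 to 0.375, against 0.486 to 0.879 over all genes. Scaling to the spiked controls and centring on bright genes move every gene equally and so could not alter it. Matching on updated gene symbols gave the same values as the main setting.

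The 1 gene that stood apart in liver was Cox7a1, the heart and muscle isoform of complex IV subunit 7a. Its signal was 189.3 in wild-type liver and 596.0 in transgenic liver, a 3.15-fold difference (log2 ratio 1.65; 1.16 to 2.34 over the 12 settings). The duodenum arrays read 4170.4 in wild type and 3879.0 in transgenic mice, so the signal was lowest in wild-type liver, and the duodenum arrays differed by 1.08-fold. Its isoform gene Cox7a2, the form of liver and most tissues, read 47276.3 and 36032.2 on the wild-type and transgenic liver arrays and 56737.3 and 58762.1 on those of duodenum. Relative to the array mean, Cox7a2 was 1.31-fold lower in the transgenic liver pool, opposite in direction to Cox7a1.

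Connective tissue markers were also higher in this pool. Of 8 fibroblast and stellate cell markers 7 passed 1.5-fold upward, with a median log2 ratio of 1.80 and a summed signal of 23660.5 against 7862.4. Of 5 smooth muscle markers 2 were measured: Tagln was at least 2.14-fold higher and Acta2 1.03-fold higher, and Myh11, Cnn1 and Actg2 were below the floor on both arrays (summed signal of the 5 markers 1506.0 against 1178.2). Of 6 striated muscle markers, the actin gene Acta1 was at least 5.31-fold higher and the creatine kinase gene Ckm 3.67-fold lower, while Myh1, Myh4, Mb and Tnnt3 were below the floor. Of 3 brown adipocyte markers, Ucp1 and Cidea were below the floor on both arrays and Dio2 read 245.7 and 254.2 (1.03-fold higher). Of 7 enterocyte markers 4 were higher and 0 lower. Hepatocyte markers had a median log2 ratio of -0.44 (8 of 9 below 0, summed signal 375135 against 511802). The part of these other cells in the Cox7a1 ratio was not tested, and in pooled tissue a difference in the number of cells and one in RNA per cell cannot be told apart.

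By complex, the liver medians were -0.04 for complex I, -0.38 for complex II, -0.14 for complex III, -0.19 for complex IV and -0.09 for complex V. All 5 lay below 0, and 50 of the 79 genes did. The same held for the 86 brightest genes of the array, those with a mean signal of at least 20000: 67 of these had a ratio below 0 (median -0.15), and so did 11 of the 16 respiratory chain genes among them (median -0.11). Relative to the spiked controls instead of the array mean, all liver ratios shift upward by the same amount, and then 42 respiratory chain genes were 1.5-fold or more higher and 0 lower (median 0.59, against 0.69 over all genes). With loess the medians of complexes III and IV were 0.08 and 0.07, and with quantile normalization that of complex III was 0.08. The sign of these small medians depended on the scale.

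Complex I held both members that were lower in liver. Ndufb3, an accessory subunit of the membrane arm, read 6192.3 and 4070.9 on the wild-type and transgenic liver arrays (1.52-fold lower, with 1 probe set), close to the 1.5-fold limit, and 4182.0 and 3923.5 on the duodenum arrays. Relative to the spiked controls its log2 ratio was 0.077. Ndufb4 read 231.0 and 75.7, at least 1.79-fold lower and dim on both arrays. The other low ratios among the measured genes were those of Ndufs4 (4046.1 and 2738.5, log2 ratio -0.56), Ndufb10 (5915.3 and 4299.8, -0.46) and Sdha (9247.6 and 6815.2, -0.44). Cox6b2, dim and below the floor in wild-type liver (57.6 and 188.6), was at least 1.46-fold higher. Of the genes with neither array under the floor, the highest ratios after Cox7a1 were those of Ndufs8, a core iron-sulfur subunit (8805.6 and 12603.1, 0.52), Ndufb7 (7065.4 and 9398.8, 0.41) and Ndufa3 (10086.7 and 13003.7, 0.37). Bright probe sets of Ndufs8 disagreed in sign, with -0.29 and -0.09 on a pair of others. The catalytic subunits Ndufs1 and Ndufv1 had log2 ratios of -0.12 and 0.22.

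In complex II, on the probe set used for each gene, 3 of the 4 liver ratios lay close together below 0 and the other was near 0. Sdha, the flavoprotein that oxidises succinate, had a log2 ratio of -0.44. Sdhd and Sdhc, the membrane anchors, read 12069.5 and 9208.3 (-0.39) and 6512.1 and 5056.2 (-0.37). Sdhb, the iron-sulfur subunit, read 20059.4 and 20193.4 (0.01). The other Sdhc probe set read 6731.9 and 6993.6 (0.055), and another bright Sdha probe set read 10084.0 and 9128.9 (-0.14). The other Sdhd probe set gave -0.44. The closeness of the 3 ratios thus depended on the probe set. A median over 4 genes is a thin summary, and with the mean of all probe sets of each gene it was -0.15. In complex III the ratios ran from -0.28 to 0.21, with the core subunit Uqcrc1 at 0.17 and the Rieske iron-sulfur protein Uqcrfs1 at -0.09.

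Complex V was the most even in liver. Its 17 genes had log2 ratios between -0.32 (Atp5k) and 0.16 (Atp5md), with an interquartile range of 0.105, against 0.361 in complex I. The catalytic subunits Atp5a1 (wild type 21503.5, transgenic 19530.7) and Atp5b (20255.8 and 19683.1) differed by 1.10-fold and 1.03-fold. The 3 genes for the same membrane rotor subunit c, Atp5g1 (11865.0 and 10669.7), Atp5g2 (7341.2 and 7018.2) and Atp5g3 (41168.3 and 38394.5), were each lower by 1.11-fold or less.

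**Figure D1:**
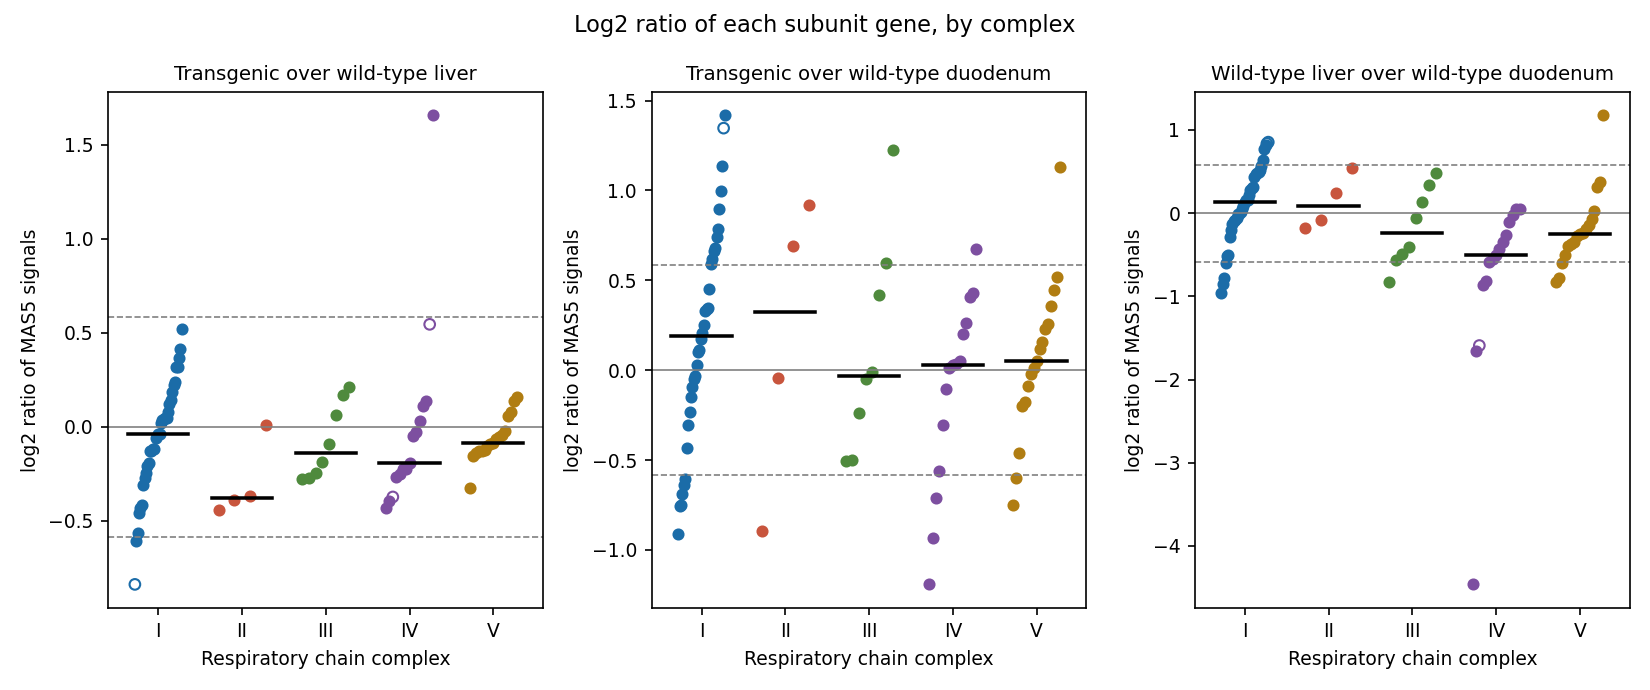
Log2 ratio of MAS5 signals (vertical axis) for each respiratory chain gene, by complex (horizontal axis), in the 3 comparisons. Each point is 1 gene, bars are medians, dashed lines mark 1.5-fold and open circles are bounds with 1 array at the floor. The liver points above the floor on both arrays, other than Cox7a1, differ by 1.52-fold or less, the duodenum points spread on both sides of 0 in every complex, and most complex IV points lie below 0 between the tissues.

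In duodenum the respiratory chain genes differed more, in both directions. Of 78 measured, 17 were 1.5-fold or more higher in the transgenic pool, 12 were lower and 49 were neither. Of all 14717 genes measured 19.2% were higher and 25.9% lower, and of the 3826 bright genes 26.8% and 17.0%. These 17 and 12 genes amount to 21.8% and 15.4% of the 78, close to the shares of bright genes. At 2-fold or more 5 were higher and 1 lower, against 8.74% and 11.1% of all genes and 11.6% and 6.30% of bright ones. The median was 0.05 against -0.11 over all genes, and the interquartile range was 0.676 against 1.03 over all genes and 0.997 over bright genes. The split between higher and lower depended on the scaling: it was 8 and 15 with quantile normalization, 9 and 16 with loess and 10 and 15 when ratios were centred on bright genes. The call was kept in every setting that gave a value for 6 of the 17 higher genes (Ndufa10, Ndufv3, Ndufs7, Ndufv1, Uqcrc1 and Atp5d) and 6 of the 12 lower (Ndufa4, Ndufa6, Ndufs1, Cox7c, Atp5c1 and Atp5l).

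Complex I held 11 of the 17 higher genes and 6 of the 12 lower, among 34 measured (median 0.19). Ndufa10, an accessory subunit, read 5253.4 in wild-type and 14029.2 in transgenic duodenum (2.67-fold). Ndufv3, an accessory subunit of the NADH-oxidising module, read 9330.5 and 20475.1 (2.19-fold). Its neighbour Ndufv1, the flavin-binding subunit that oxidises NADH, read 3270.8 and 6085.2 (1.86-fold). Ndufs7, an iron-sulfur subunit next to the ubiquinone site, read 3299.9 and 6595.0 (2.00-fold). Ndufa4l2, a hypoxia-induced relative of Ndufa4, read 119.8 and 328.8, at least 2.54-fold higher at a dim signal. The other higher genes were Ndufb10, Ndufa2, Ndufa13, Ndufs3, Ndufa5 and Ndufb7, at 1.51-fold to 1.72-fold.

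The lower complex I genes included subunits of the same modules. Ndufs1, the largest iron-sulfur subunit and a partner of Ndufv1, read 2422.0 and 1504.9 (1.61-fold lower). Ndufa4 read 18315.4 and 9732.0 (1.88-fold lower) and its protein is now assigned to complex IV. Ndufb1, Ndufs4, Ndufs5 and Ndufa6 were 1.69-fold, 1.68-fold, 1.55-fold and 1.52-fold lower. So the core genes of complex I did not move as 1 group: of the 6 measured (Ndufs1, Ndufs3, Ndufs7, Ndufs8, Ndufv1 and Ndufv2), 3 were higher, 1 lower and 2 neither.

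The 4 genes of complex II showed the same mixture. Sdha, whose promoter is printed above, read 7828.0 and 14804.1 (1.89-fold higher) and Sdhc 4451.0 and 7193.2 (1.62-fold higher). Another bright Sdha probe set read 5049.0 and 6765.6 (1.34-fold higher), under the 1.5-fold limit. Sdhd read 13650.8 and 7334.3 (1.86-fold lower), and Sdhb read 21179.4 and 20545.4 (1.03-fold lower). Sdhc and Sdhd encode the 2 anchors of the same complex, and the opposite sign of their ratios rests on 1 of 2 Sdhc probe sets: the other read 4262.7 and 3584.3 (1.19-fold lower). Both Sdhd probe sets were lower (log2 ratios -0.90 and -0.26). With probe sets that can bind several transcripts left out the complex II median was -0.04 in place of 0.32.

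In complex III both core subunits were higher and the Rieske protein was not. Uqcrc1 read 8653.8 and 20251.1 (2.34-fold) and Uqcrc2 15609.0 and 23559.4 (1.51-fold), while Uqcrfs1 read 12302.1 and 8681.0 (1.42-fold lower). In complex IV, Cox5a read 30728.9 and 49076.9 (1.60-fold higher). Cox6c read 40326.6 and 21088.6 (1.91-fold lower, while its other probe set was 1.66-fold higher), Cox7c 597.9 and 261.8 (2.28-fold lower, both signals dim) and Cox6a2, the muscle isoform of subunit 6a, 670.4 and 408.8 (1.64-fold lower). Cox4i1 (28238.7 and 28515.0) and Cox5b (38192.3 and 39134.6) differed by 1.01-fold and 1.02-fold. In complex V, Atp5d, the delta subunit of the catalytic head, read 14890.9 and 32566.8 (2.19-fold higher), and Atp5c1, the gamma subunit, read 18541.3 and 11018.3 (1.68-fold lower). The catalytic subunits Atp5a1 (21092.8 and 18338.9) and Atp5b (15642.3 and 20031.1) were 1.15-fold lower and 1.28-fold higher, but the 2 other probe sets of Atp5a1 were 1.65-fold (12268.4 and 20210.4) and 2.29-fold higher (1654.2 and 3793.1). Atp5l, of the membrane part, was 1.51-fold lower.

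The kind of probe set moved with the duodenum ratios. Identifiers ending in _a_at, _s_at or _x_at mark probe sets that can bind several transcripts, and plain _at marks the others. For 27 respiratory chain genes with bright probe sets of both kinds, the first kind gave the higher duodenum ratio in 22 (medians 0.36 and -0.07). In liver it did so in 12 of 27 and between the wild-type tissues in 9 of 27. Over all 537 genes with both kinds it did so in 392 (73.0%) in duodenum, so the difference was not limited to the respiratory chain. For Cox6c the duodenum log2 ratios were 0.73 and -0.94, for Ndufb6 0.45 and -0.63 and for Ndufa5 0.62 and -0.47. Without the first kind of probe set 7 genes were higher and 16 lower in duodenum. The 3′ to 5′ ratios of Gapdh and Actb were also highest on the transgenic duodenum array (3.07 and 2.69, against 1.03 and 1.77 in wild-type duodenum), and their part in the ratios was not tested.

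**Figure D2:**
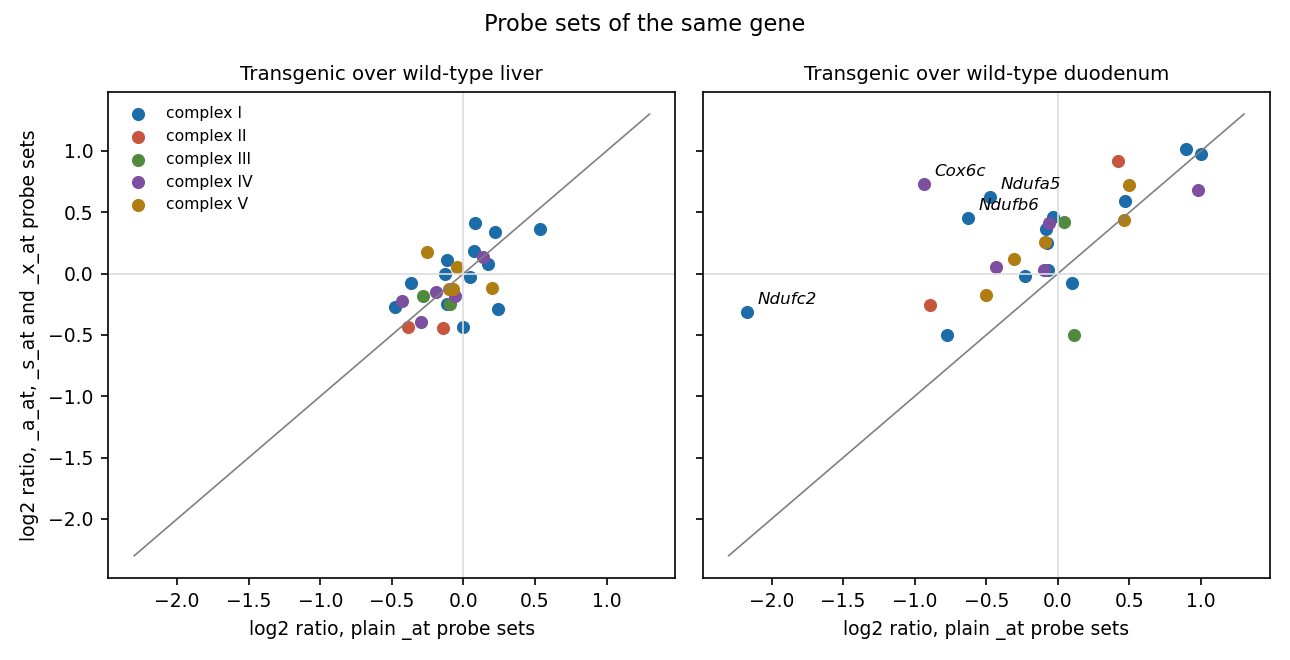
Log2 ratio of transgenic over wild type from plain _at probe sets (horizontal axis) and from _a_at, _s_at and _x_at probe sets (vertical axis) of the same gene, for 27 respiratory chain genes with a mean signal of at least 1000 in both, coloured by complex. The line marks equal ratios; in liver 12 of 27 points lie above it, and in duodenum 22 of 27.

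Markers of several cell types and tissues were also higher in the transgenic duodenum pool. All 6 measured exocrine pancreas markers were higher (median log2 ratio 6.08, summed signal 64155.5 against 836.7), as were 4 of 5 Brunner gland and stomach markers (median 3.11, summed signal 149865 against 1377.0). Of 5 smooth muscle markers 4 were higher (median 0.91, summed signal 22234.2 against 11523.2), and of 7 enterocyte markers 4 were higher and 0 lower (median 0.76, summed signal 346917 against 251809). Of 8 fibroblast markers 1 was higher and 2 lower. Of 6 striated muscle markers 3 were measured: Acta1 was at least 35.0-fold higher, Ckm 1.94-fold lower and Myh4 at least 1.90-fold lower (summed signal 4973.5 against 937.5). Of 7 measured hepatocyte markers 2 were higher, Ttr by 17.3-fold and Hnf4a by 1.65-fold, and 0 lower (summed signal 137566 against 119667). Of the brown adipocyte markers 1 of 3 was measured (Dio2, 1.06-fold lower). The part of these cells and tissues in the ratios of the respiratory chain genes was not tested.

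Liver and duodenum were set side by side gene by gene. Of 78 genes measured in both, 29 passed 1.5-fold in duodenum and 2 in liver. The 2 ratios had the same sign in 44 genes and opposite signs in 34, and their correlation across genes was r = 0.14 (rho 0.14), which describes genes that are not independent. Whether the genotype difference itself differed between the tissues was not tested, since each group holds 1 array.

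The wild-type arrays gave the difference between the tissues, and they are the same arrays that serve as controls above, so these ratios are not independent of the others. Of 79 genes measured, 6 were 1.5-fold or more higher in liver than in duodenum and 14 lower. Of all 14917 genes measured 21.9% were higher and 32.5% lower, and of the 3843 bright genes 29.8% and 28.3%. At 2-fold or more 1 was higher and 3 lower, against 13.6% and 18.5% of all genes and 21.1% and 17.0% of bright ones. The interquartile range was 0.755 against 1.27 over all genes. The spread was narrower than over all genes in each of the 12 settings (0.528 to 0.755, against 0.971 to 1.57). As in liver, the spiked controls, centring and updated symbols left it as it was in the main setting.

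The complexes did not share 1 level between the tissues. The medians of liver over duodenum were 0.14 for complex I, 0.08 for complex II, -0.23 for complex III, -0.51 for complex IV and -0.25 for complex V. Complex IV had 13 of 15 ratios below 0, 6 of them 1.5-fold or more lower and 0 higher. Complex I had 21 of 35 above 0, with 5 higher and 4 lower, and complex V had 13 of 17 below 0. The complex IV median minus the complex I median was -0.64 on the log2 scale (between -0.75 and -0.43 over the 12 settings). The complex V median minus the complex I median was -0.39 (between -0.39 and -0.27). With only respiratory chain genes of a mean signal of at least 1000, the differences were -0.43 for complex IV and -0.33 for complex V. A shift of all genes by 1 amount, as with the spiked controls or centring, cannot change these differences. The medians themselves moved with the scale: relative to the spiked controls 22 genes were higher and 3 lower, and with quantile normalization 4 and 22.

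**Figure D3:**
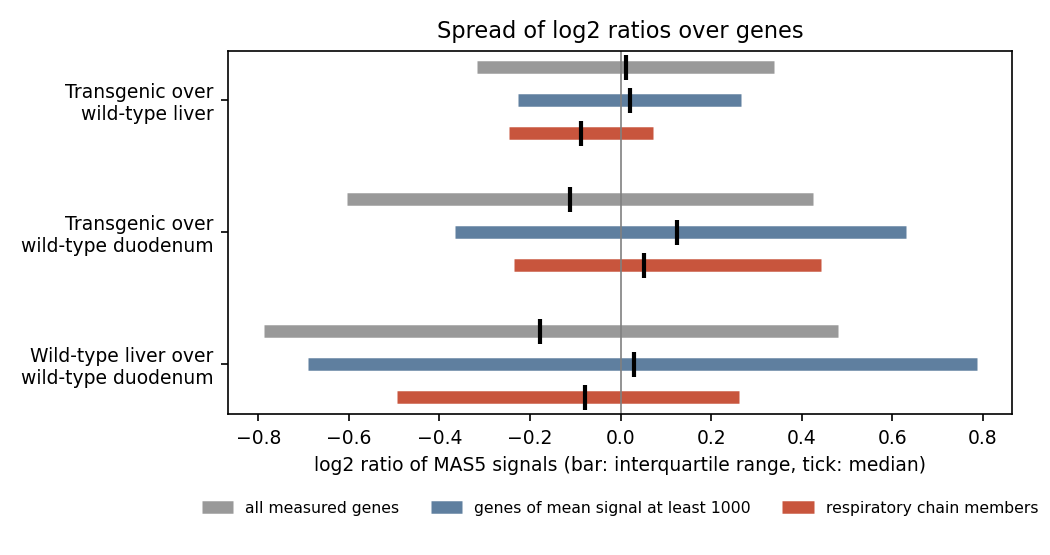
Spread of log2 ratios over genes in the 3 comparisons (horizontal axis: log2 ratio of MAS5 signals; bars: interquartile range; ticks: median) for all measured genes, genes with a mean signal of at least 1000 and the respiratory chain genes. The bar of the respiratory chain genes is the shortest in each comparison: 0.318, 0.676 and 0.755, against 0.655, 1.03 and 1.27 over all genes.

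Cox7a1 differed most between the tissues, at 189.3 in wild-type liver and 4170.4 in wild-type duodenum, 22.0-fold lower in liver. The duodenal wall holds a smooth muscle layer, and 4 of 5 smooth muscle markers were lower in liver (median log2 ratio -2.95, summed signal 1178.2 against 11523.2); their part in the ratio was not tested. Cox7c was 3.15-fold lower (190.0 and 597.9) and Cox6b2, known as the testis isoform of subunit 6b, at least 3.01-fold lower (57.6 and 389.4). Cox6a2 was 1.82-fold lower, Cox5b 1.76-fold lower (21687.0 and 38192.3) and Cox7a2l, a factor of supercomplex assembly, 1.51-fold lower. Uqcrc2 was the 1 gene of complex III past the fold, at 1.78-fold lower (its other probe set was 1.05-fold higher). In complex I, Ndufb7, Ndufs8, Ndufv2 and Ndufa10 were 1.95-fold, 1.80-fold, 1.71-fold and 1.51-fold lower; for Ndufs8 the sign depended on the probe set (log2 ratio -0.85, and 0.23 without probe sets that can bind several transcripts). In complex V, Atp5c1, Atp5o and Atp5e were 1.78-fold, 1.71-fold and 1.51-fold lower.

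The genes higher in wild-type liver were few. Atp5g1, 1 of the 3 genes for subunit c, read 11865.0 in liver and 5255.9 in duodenum (2.26-fold), while its counterparts Atp5g2 (7341.2 and 5879.2, 1.25-fold higher) and Atp5g3 (41168.3 and 48734.0, 1.18-fold lower) stayed under the fold. Ndufs3 was 1.76-fold higher (6652.4 and 3778.5), Ndufa13 1.71-fold and Ndufa8 1.56-fold. Ndufb4 and Ndufa4l2 were at least 1.79-fold and at least 1.81-fold higher, both dim.

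The isoform families were followed over the 4 arrays. The ubiquitous Cox4i1 read 20902.2, 21332.8, 28238.7 and 28515.0 on the wild-type and transgenic liver arrays and the wild-type and transgenic duodenum arrays, and its lung isoform Cox4i2 read 167.4, 114.2, 237.6 and 273.4. Both were lower in liver than in duodenum, and neither passed 1.5-fold between genotypes. In the same order Cox6a1 read 39662.8, 38952.4, 42546.5 and 57200.6, and its muscle isoform Cox6a2 read 368.8, 356.7, 670.4 and 408.8. In duodenum the 2 had ratios of opposite sign. Cox6b1 read 38394.1, 32913.1, 37201.4 and 49412.0 and Cox6b2 read 57.6, 188.6, 389.4 and 315.4, which again gave opposite signs in duodenum and in liver, although the other Cox6b1 probe set was 1.04-fold lower in duodenum. Cox7a2l read 3930.8, 3364.8, 5924.1 and 7097.1. Cox8a read 10325.4, 11341.5, 13133.5 and 13378.1, and Cox8c 1485.6, 1102.7, 1513.2 and 1025.3. Cox8b, the muscle isoform of subunit 8, and Cox7b2 were below the floor on all 4 arrays. So of the muscle isoforms, Cox7a1 was 3.15-fold higher in transgenic liver, Cox6a2 1.03-fold lower and Cox8b below the floor.

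**Figure D4:**
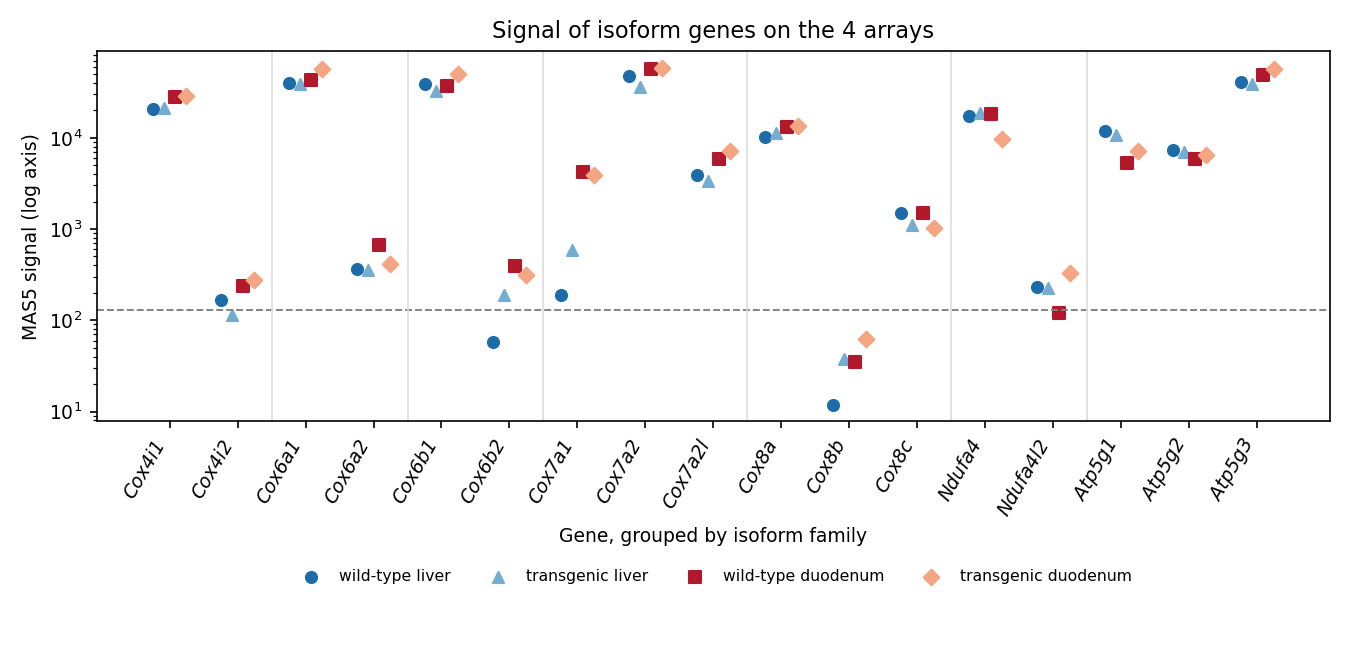
MAS5 signal (vertical axis, log scale) of isoform genes of complexes I, IV and V on the 4 arrays, 1 point per array; the dashed line is the floor of 129.3. Heights can be compared between the arrays of 1 gene and not between genes, and among the genes above the floor on all 4 arrays Cox7a1 has the widest gap between its liver arrays (189.3 and 596.0) and its duodenum arrays (4170.4 and 3879.0).

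Genes that act with the complexes were described by lists, which were chosen with earlier results of these data known. In liver few genes of these lists passed the fold, beside 13.5% higher and 12.1% lower over all genes. Of 12 citric acid cycle genes 0 passed 1.5-fold (median -0.07), with Dlst at 0.34 and Suclg2 at -0.40. Of 76 mitochondrial ribosome genes 6 were higher and 3 lower (median 0.03), with Mrps6 1.87-fold higher and Mrpl48 2.50-fold lower. Of 13 complex I assembly factors 0 were higher and 1 lower (Acad9, just at 1.5-fold). Of 26 assembly factors of complexes II to V 4 were higher and 1 lower: Cox10 and Cox15, which make the heme A of complex IV, were 2.22-fold and 1.60-fold higher, and Bcs1l, which inserts the Rieske protein into complex III, was 1.59-fold lower. Of 8 electron carriers and their reductases only Gpd2, the mitochondrial glycerol phosphate dehydrogenase, passed the fold (1292.8 and 659.9, 1.96-fold lower). Of 8 exchange and uncoupling genes only Slc25a4, the muscle isoform of the ADP/ATP carrier, did (276.5 and 661.6, 2.39-fold higher), while its liver counterpart Slc25a5 read 32432.8 and 27136.1 (1.20-fold lower). Of the muscle isoforms named here, Cox7a1 and Slc25a4 were thus higher in transgenic liver, Cox6a2 was 1.03-fold lower and Cox8b was below the floor. The widely expressed counterparts Cox7a2 and Slc25a5 were slightly lower relative to the array mean, as were 67 of the 86 brightest genes. Relative to the spiked controls all liver ratios shift upward.

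The largest liver difference in these lists lay among the regulators. Of 16 regulators of mitochondrial genes 0 were higher and 3 lower, and the 3 encode the PGC-1 family of coactivators. A count of 3 of 16 lower (18.8%) is near the 12.1% of all genes. Ppargc1b read 1322.7 in liver of the wild type and 193.0 with the transgene (6.85-fold lower), Ppargc1a 986.7 and 559.9 (1.76-fold lower) and Pprc1 356.2 and 222.9 (1.60-fold lower). The DNA-binding factors of the list stayed under the fold, as did Tfam, the packaging factor of mitochondrial DNA. The highest ratios were those of Tfb1m (0.46) and Gabpb1 (0.42). In the same arrays the subunit genes had the median of -0.09 given above.

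In duodenum the lists held genes on both sides of 0, as the subunits did. Over all genes 19.2% were higher and 25.9% lower, and over bright genes 26.8% and 17.0%. The counts of the regulators and of the mitochondrial ribosome lie near the shares of bright genes. Of 16 regulators 4 were higher and 2 lower: Pprc1 2.70-fold and the mitochondrial RNA polymerase Polrmt 2.36-fold higher, Gabpb1 2.62-fold and Ppargc1a 2.07-fold lower. Of 12 citric acid cycle genes 4 were higher and 2 lower, with citrate synthase Cs 1.79-fold and Suclg1 1.69-fold higher, Dld 3.07-fold and Idh3a 2.29-fold lower. Of 26 assembly factors of complexes II to V 7 were higher and 7 lower, with Bcs1l at least 5.00-fold and Cox15 4.43-fold higher, Coa6 2.95-fold and Tmem70 2.49-fold lower. Of 13 complex I assembly factors 1 was higher and 3 lower, with Ndufaf3 1.79-fold higher and Tmem126b 2.44-fold lower. Among the electron carriers Etfb and Etfa, the 2 chains of 1 electron transfer flavoprotein, were 2.39-fold higher and 1.99-fold lower. The mitochondrial ribosome had 19 of 76 higher and 10 lower, with Mrpl52 2.55-fold higher and Mrpl13 2.74-fold lower.

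Between the wild-type tissues several lists had medians farther from 0 than the subunits did. The shares over all genes were 21.9% higher and 32.5% lower (bright genes 29.8% and 28.3%), and the counts of the mitochondrial ribosome higher in liver and of the regulators lie near them. Of 13 complex I assembly factors 9 were higher in liver and 0 lower (median 1.23), with Acad9 4.28-fold and Ndufaf2 3.12-fold higher, while the complex I subunits had a median of 0.14. The mitochondrial ribosome had 25 of 76 higher and 4 lower (median 0.37), with Mrpl38 6.20-fold higher and Mrpl12 2.53-fold lower. Of 8 exchange and inhibitor genes 0 were higher and 5 lower (median -0.83): Atpif1, the inhibitor of ATP synthase, read 1490.5 in liver and 10386.5 in duodenum (6.97-fold lower), and Slc25a4 was 3.97-fold lower. Of 12 citric acid cycle genes 4 were higher and 6 lower (median -0.58), with Suclg2 2.38-fold higher and Cs 4.68-fold lower (3198.1 and 14974.0). Electron transfer flavoprotein genes were higher in liver, Etfdh by 5.88-fold and Etfb by 3.31-fold. Of 16 regulators 5 were higher and 5 lower, with the nuclear receptor Esrra 5.30-fold lower.

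The promoter motifs were set against the ratios as a description. Of the 15 genes with the NRF1 motif measured in liver 1 had a ratio above 0 (median -0.13), against 27 of the 49 without it (median 0.03). Of the 8 genes with the AhR core 7 had a liver ratio above 0 (median 0.10), the exception being Sdha (-0.44), against 21 of 56 without it (median -0.06). None of the 8 passed 1.5-fold in liver, and Sdhb (0.01), Ndufc2 (0.03) and Ndufa7 (0.08) were close to 0. For Ndufc2 the other probe sets above the floor gave -0.37 and -0.18. For Ndufa7 the others gave -0.19, -0.03, 0.13 and 0.28. Other probe sets of Ndufa3 and Ndufv1 were above 0. The other 2 motifs showed little contrast in liver. With the GABP motif 8 of 16 genes had a ratio above 0 (median -0.008), against 20 of 48 without it (-0.055). With the YY1 motif it was 6 of 13 (-0.041), against 22 of 51 (-0.056). In duodenum the medians were 0.24 with and 0.04 without the NRF1 motif, and 0.0037 with and 0.11 without the AhR core. They were 0.13 with and 0.05 without the GABP motif, and 0.11 with and 0.05 without the YY1 motif. Members of 1 complex shared motifs unevenly, so these groups also differ in their complexes.

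Agreement between probe sets of 1 gene gave a partial view of the error. A second probe set above the floor pointed the same way for 30 of 45 genes in liver, 27 of 46 in duodenum and 35 of 47 between the wild-type tissues. Among the genes past 1.5-fold it did so for 12 of 15 in duodenum and 10 of 11 between the tissues. With second probe sets of a mean signal of at least 1000 only, the counts were 26 of 38 in liver, 20 of 38 in duodenum and 29 of 38 between the tissues. Among the genes past 1.5-fold they were then 8 of 11 in duodenum and 6 of 7 between the tissues. In liver, Cox7a1, Ndufb3 and Ndufb4 have 1 probe set each and could not be checked this way. The median absolute difference between the log2 ratios of the pair was 0.20 in liver, 0.36 in duodenum and 0.30 between the tissues.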

How the data were processed

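Total RNA pools were hybridized to 4 arrays, 1 for each genotype and tissue named in the labels. The deposited values are linear signal intensity per probe set, for which the submitters' processing notes name MAS5; the authors' MAS5 settings and detection calls were not given in the sources used here. Precision is limited by the number of arrays.

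Of 45101 probe sets, 34958 had 1 gene symbol in the platform annotation, 932 had several and were not used to name a gene, and 9211 were not listed. A gene was represented by the probe set whose log2 signal, averaged over the 4 arrays, was highest. The floor was each array's 40th percentile, without Affymetrix control probe sets, averaged over arrays. Log2 ratios were computed from the deposited intensities with no further normalization, in Python 3.11.15 with pandas 2.3.3, statsmodels 0.14.6 and matplotlib 3.10.9, and the computation was tested on simulated data. A gene counted as higher or lower at 1.5-fold. No test was run, because no group has a replicate.

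The genes, lists and comparisons were chosen with earlier results of these data known. Named were, per comparison, the 4 highest and 4 lowest ratios above the floor, every gene at 2-fold, isoform families, Sdh and catalytic genes, and the 2 highest and 2 lowest of each list; other genes past 1.5-fold were named after their values were seen. Tried as alternatives were 9 planned settings of the probe set, floor, scaling and membership, and 2 chosen after seeing the data (genes with a mean signal of at least 1000, and centring on them). The split by kind of probe set was also added after seeing the data. Motifs were searched in RefSeq promoters (GRCm38.p6), using the first start site for the 5 genes with several.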

Additional observations from a re-analysis of the deposited data

Results flagged for a closer look

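Complex II had median ratios of opposite sign in the 2 tissues: the median log2 ratio between the genotypes (transgenic over wild type) was -0.38 in liver and 0.32 in duodenum. In liver 3 of its 4 genes lay below 0, and in duodenum Sdha and Sdhc were higher and Sdhd lower. With the mean of all probe sets the medians were -0.15 and 0.09. Without probe sets that can bind several transcripts they were -0.14 and -0.04, both below 0. Relative to the spiked controls the liver median was 0.30, and with loess the duodenum median was 0.023. The opposite signs thus depended on the processing. The difference between the tissues was not tested, and each median rests on 4 genes and 1 array per group.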

How the results depend on the processing

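No paired analysis was possible because each group holds 1 array. A median counted as moved at a shift of 0.2 or more on the log2 scale, and a count at a change of over 1.5 times. Of the main counts and medians set against the alternatives, 209 stayed within these limits and 55 moved. Changes of sign of a median were not counted apart. In duodenum the median over all respiratory chain genes was 0.05, and -0.24 with loess, and that of complex I was 0.19, and -0.13 with loess. The largest shifts came with the spiked controls as the scale, whose own median ratio is subtracted from every gene (median of all genes 0.69 in liver and 0.21 between the tissues, against 0.01 and -0.18). On that scale 42 genes were higher and 0 lower in liver, with medians of 0.59 over all respiratory chain genes, 0.64 in complex I, 0.30 in II, 0.54 in III, 0.49 in IV and 0.59 in V, and Ndufb3 reversed to 0.077. Between the wild-type tissues 22 were higher and 3 lower, with medians of 0.31 over all, 0.52 in complex I, 0.46 in II, 0.15 in III, -0.12 in IV and 0.13 in V. With loess the liver counts were 2 higher and 1 lower and the medians of complexes III and IV 0.077 and 0.072. In duodenum loess gave 9 higher genes and medians of -0.24 over all, -0.13 in complex I, 0.023 in II, -0.34 in III, -0.29 in IV and -0.26 in V. With quantile normalization the liver counts were 3 higher and 1 lower and the complex III median 0.084. In duodenum it gave 8 higher genes and medians of -0.084 in complex I, 0.063 in II, -0.35 in III and -0.28 in V. Between the tissues it gave 22 lower genes and medians of -0.29 over all, -0.12 in complex I, -0.18 in II and -0.52 in III. It and loess moved the median of all genes in duodenum from -0.11 to 0.04 and -0.04. Without probe sets that can bind several transcripts the counts were 2 higher and 4 lower in liver, 7 higher in duodenum and 8 lower between the tissues. The complex II median was then -0.14 in liver, the duodenum medians were -0.080 in complex I, -0.044 in II and -0.37 in IV, and Ndufs8 reversed to 0.23 between the tissues. With the mean of all probe sets the complex II medians were -0.15 in liver and 0.089 in duodenum, and 9 genes were lower between the tissues. The remaining shifts were in small counts: 3 higher in liver with no floor, 1 lower in liver with a floor at the 60th percentile or among genes with a mean signal of at least 1000, and 10 higher in duodenum with ratios centred on bright genes. Apart from the arithmetic of each scale, the cause of these shifts was not tested. Dim genes (Ndufb4, Ndufa4l2, Cox6b2, Cox7c) have values near the floor, which limits their folds.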

Other observations

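Of the subunits encoded in mitochondrial DNA, the annotation gave 1 symbol, ND5 of complex I, which was chosen after its values were seen. It read 51333.9 and 41066.7 on the wild-type and transgenic liver arrays (log2 ratio -0.32) and 40822.1 and 11796.3 on those of duodenum (log2 ratio -1.79), so the transgenic duodenum array was the low one of the 4.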
